A study of Homo sapiens with 4 samples.

Results

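The TLE genes encode the human Groucho/transducin-like enhancer of split corepressors, and the 6 genes of this family, TLE1, TLE2, TLE3, TLE4, TLE5, and TLE6, were examined among the 20033 protein-coding genes of GENCODE 44. Peaks were assigned to a gene when they overlapped its body plus 50 kb on each side, and to a promoter when their centre lay from 1000 bp upstream to 100 bp downstream of any annotated start site. The data were peak lists from CUT&RUN, in which micrococcal nuclease tethered to an antibody cuts out the chromatin around a bound protein, and the released fragments are sequenced. All 4 libraries came from HSSY II, a human synovial sarcoma (SS) cell line that carries the SS18::SSX fusion, and held 1000000 HSSY II cells and 50000 murine NIH-3T3 cells as spike-in. The groups were SS18::SSX with DMSO, SS18::SSX with MS67, WDR5 with DMSO, and WDR5 with MS67, with 1 library in each, the treatment lasting 4 days and MS67 given at 2.5 μM. MS67 is a PROTAC, a molecule that brings WDR5 to an E3 ubiquitin ligase for degradation. With 1 library per condition, no difference below had a replicate check and none was tested.

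TLE1 to TLE4 are full-length corepressors, with an N-terminal domain through which they form tetramers and a C-terminal WD-repeat propeller that docks onto short motifs of DNA-binding repressors. They do not bind DNA themselves but are recruited by TCF/LEF factors in the WNT pathway, HES factors in the NOTCH pathway, RUNX factors, and many homeodomain proteins. TLE5, also known as AES, is a short family member that lacks the WD repeats and can modulate the full-length proteins. TLE6 is a divergent member, best known as part of the subcortical maternal complex of the oocyte. TLE1 protein is strongly expressed in most SS tumors, and its immunostaining is used as a diagnostic marker. WDR5 is a subunit shared by the KMT2 complexes that methylate histone H3 at lysine 4, and SS18::SSX is built into SWI/SNF remodeling complexes.

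In hg38, TLE1 (ENSG00000196781.16) lies on the minus strand of chr9:81583683-81689547, and TLE4 on the plus strand of chr9:79571773-79726882. TLE3 is on the minus strand of chr15:70047790-70098176. TLE6 (chr19:2977538-2995179, plus strand), TLE2 (chr19:2997639-3047635, minus strand), and TLE5 (chr19:3052910-3063107, minus strand) are neighbours on chromosome 19. Their windows overlap, so that the 6 genes made up 4 loci, of 796.932 kb together, and a peak near TLE2 could also count for TLE5 and TLE6. Members therefore are not independent of each other, and counts below are also given per locus.

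SS18::SSX and WDR5 were distributed differently over the family. With DMSO, all 12 SS18::SSX peaks lay in the chromosome 19 locus of TLE6, TLE2, and TLE5, and none lay within 50 kb of TLE1, TLE3, or TLE4. WDR5 had 23 peaks, with 12 in the chromosome 19 locus, 6 at TLE3, 4 at TLE4, and 1 at TLE1. With MS67, no SS18::SSX peak and 6 WDR5 peaks were listed in the windows.

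The sequences below are those on which this distribution turns: the only peak at TLE1 and the TLE1 promoter without one, the SS18::SSX peaks in TLE6, TLE2, and TLE5, the WDR5 peak at the upstream TLE2 promoter, the WDR5 summit of highest −log10 q at TLE3, and the TLE4 site listed only with MS67. Where a summit is named, the 100 bases on each side of it are shown. Capitals mark matches on either strand to GGGCGG (the GC box), CCAAT, or CACGTG (the E-box of MYC-type factors), none of which holds another, although GGGCGG and CCAAT can share end letters. Coordinates are hg38 for peaks and GRCh38.p14 for the promoter, which was taken from RefSeq.
TLE1, WDR5 peak with DMSO, chr9:81691528-81691731, plus strand: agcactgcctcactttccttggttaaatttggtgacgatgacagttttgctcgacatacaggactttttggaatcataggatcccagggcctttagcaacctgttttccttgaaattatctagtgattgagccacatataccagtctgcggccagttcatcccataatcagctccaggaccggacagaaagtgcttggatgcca
TLE1, 250 bases before the RefSeq start, chr9:81689548-81689797, minus strand: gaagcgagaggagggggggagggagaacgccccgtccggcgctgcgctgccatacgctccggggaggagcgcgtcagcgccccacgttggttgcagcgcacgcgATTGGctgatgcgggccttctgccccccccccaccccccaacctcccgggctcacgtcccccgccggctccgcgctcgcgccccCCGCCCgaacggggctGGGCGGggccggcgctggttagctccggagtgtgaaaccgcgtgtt
TLE6, SS18::SSX peak with DMSO, chr19:2983897-2984169, plus strand: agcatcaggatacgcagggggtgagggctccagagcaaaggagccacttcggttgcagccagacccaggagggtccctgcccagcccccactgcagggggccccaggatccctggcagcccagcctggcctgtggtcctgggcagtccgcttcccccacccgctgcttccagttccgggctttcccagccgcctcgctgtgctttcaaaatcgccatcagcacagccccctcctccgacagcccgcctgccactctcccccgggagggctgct
TLE2, SS18::SSX peak with DMSO, chr19:3028403-3028607, plus strand: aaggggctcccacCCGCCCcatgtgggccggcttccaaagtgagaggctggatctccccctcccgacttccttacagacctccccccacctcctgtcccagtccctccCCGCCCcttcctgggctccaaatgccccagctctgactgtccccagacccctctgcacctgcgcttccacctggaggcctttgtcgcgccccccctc
TLE2, WDR5 promoter peak with DMSO, chr19:3047718-3047899, plus strand: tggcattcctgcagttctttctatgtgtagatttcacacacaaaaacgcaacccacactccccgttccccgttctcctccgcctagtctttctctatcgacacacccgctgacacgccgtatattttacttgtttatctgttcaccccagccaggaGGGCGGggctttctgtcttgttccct
TLE5, SS18::SSX summit with DMSO, chr19:3055040-3055240, plus strand: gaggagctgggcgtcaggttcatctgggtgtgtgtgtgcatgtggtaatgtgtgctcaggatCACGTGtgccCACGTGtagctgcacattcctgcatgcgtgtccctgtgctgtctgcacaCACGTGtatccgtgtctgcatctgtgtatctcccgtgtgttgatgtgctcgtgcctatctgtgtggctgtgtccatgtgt
TLE3, WDR5 summit with DMSO, chr15:70111728-70111928, plus strand: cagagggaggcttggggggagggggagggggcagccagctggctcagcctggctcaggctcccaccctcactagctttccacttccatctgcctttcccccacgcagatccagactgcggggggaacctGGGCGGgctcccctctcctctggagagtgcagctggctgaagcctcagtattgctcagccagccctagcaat
TLE4, WDR5 peak with MS67, chr9:79651310-79651469, plus strand: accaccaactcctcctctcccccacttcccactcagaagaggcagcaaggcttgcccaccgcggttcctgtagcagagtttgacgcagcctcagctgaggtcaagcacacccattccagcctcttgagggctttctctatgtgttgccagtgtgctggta

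The 204-bp peak at TLE1 had no capital letter, whereas the TLE1 promoter held 3 GC boxes and a CCAAT match in its 300 bp, 50 of which follow the start and are not shown. The sequence at the TLE5 summit shown, 1 of 4 SS18::SSX summits in that gene, held 3 matches to CACGTG. It was the only 1 of the 12 SS18::SSX window peaks with that match. A match is a description of the letters and was not used to place a factor there.

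A peak in the window was listed with DMSO for SS18::SSX at 3 of 6 TLE genes (47.6% of all protein-coding genes) and for WDR5 at 6 of 6 (85.4%). With MS67, it was listed for SS18::SSX at 0 of 6 (6.68%) and for WDR5 at 5 of 6 (70.6%). By these counts, the family was close to the annotation as a whole for SS18::SSX with DMSO, and its 3 genes were 1 of 4 loci. Chromosome 19 is rich in genes and peaks, and 71.5% of its 1476 genes had an SS18::SSX peak in the window, against 49.4% on chromosome 9 and 46.9% on chromosome 15. With MS67, an SS18::SSX peak was in the window of 8.81% of genes on chromosome 19, 11.2% on chromosome 9, and 3.83% on chromosome 15. For WDR5, the chromosomes differed less, with 90.8%, 86.5%, and 88.9% of genes with DMSO and 85.6%, 70.1%, and 76.7% with MS67 in the same order. A WDR5 peak without any SS18::SSX peak in the window, as at TLE1, TLE3, and TLE4 with DMSO, was found at 45.4% of all genes with a WDR5 window peak.

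**Figure D1:**
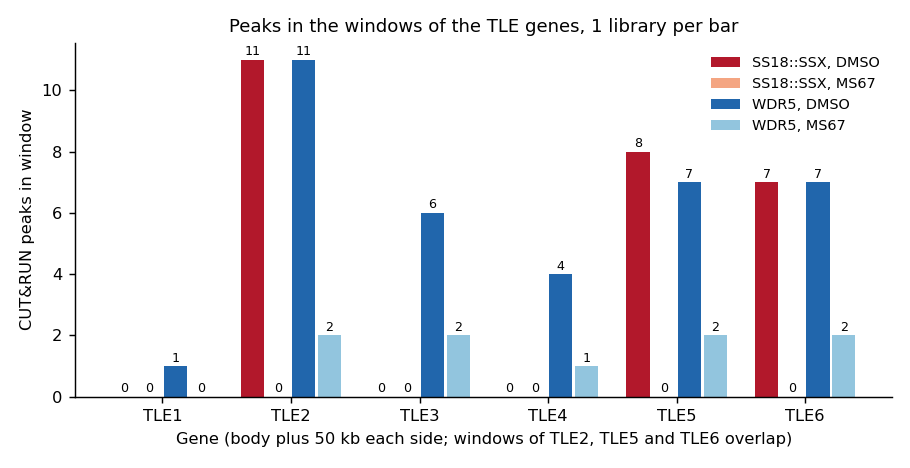
Number of CUT&RUN peaks (y axis) overlapping the body plus 50 kb on each side of each TLE gene (x axis) in the 4 libraries, 1 bar per library. SS18::SSX bars stand at TLE2 (11), TLE5 (8), and TLE6 (7) with DMSO and nowhere with MS67, and peaks in the overlapping windows of these 3 genes are counted for each.

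TLE2 had 11 SS18::SSX peaks in its window with DMSO, TLE5 had 8, and TLE6 had 7. Per 100 kb of window, this was 7.33 peaks for TLE2, 7.26 for TLE5, and 5.95 for TLE6. A lower density was found at 97.3% of all protein-coding genes for TLE2, 97.2% for TLE5, and 96.5% for TLE6. Against the genes of chromosome 19 alone, where the median was 1.46 peaks per 100 kb, the shares were 96.1%, 96.1%, and 94.4%. The locus was thus among the denser ones for SS18::SSX, on its own chromosome as well, while the 3 densities draw largely on the same peaks.

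For WDR5 with DMSO, TLE2 had 11 peaks in its window, TLE5 and TLE6 had 7 each, TLE3 had 6, TLE4 had 4, and TLE1 had 1. The density was 7.33 peaks per 100 kb for TLE2, 6.35 for TLE5, 5.95 for TLE6, 3.99 for TLE3, 1.57 for TLE4, and 0.486 for TLE1, beside a median of 2.10 over all protein-coding genes. TLE1 and TLE4 thus stood below the median gene and the other 4 genes above it. On chromosome 19, where the median was 5.28, a lower density was found at 57.3% of genes for TLE6, 61.5% for TLE5, and 71.5% for TLE2. For WDR5, TLE6 was thus nearest the middle of its chromosome and TLE2 stood higher. The WDR5 density of TLE1 was above that of 17.8% of all genes.

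TLE1, the marker gene of SS, was bare of peaks over its whole body in all 4 libraries. No share of genes without a body peak is given here, so this is a description without a comparison. Even in the wider window, only 47.6% of all protein-coding genes had an SS18::SSX peak with DMSO. Its nearest SS18::SSX peak with DMSO was 307.0 kb from the canonical start site, and 23.1% of all genes had a more distant one. The only peak in its window was the WDR5 peak with DMSO at chr9:81691528-81691731, in an intron of the divergent noncoding gene TLE1-DT, with its edge 1.98 kb from the TLE1 start. Its summit held 17 fragments over a local background of 2.46 fragments per bp, a fold enrichment of 5.20 and a −log10 q of 6.31, higher than at 74.8% of the WDR5 peaks. At 46.1%, the GC content of the peak was below the median of 58.5% in the WDR5 list. With MS67, the nearest WDR5 peak was 438.7 kb away, and 5.29% of all genes had a more distant one.

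TLE3 and TLE4 likewise had no SS18::SSX peak nearby, the nearest being 287.4 kb from the TLE3 start and 314.2 kb from the TLE4 start, beside a median of 85.4 kb over all genes. These distances are those of the DMSO library. With MS67, the nearest SS18::SSX peak was 1222 kb from TLE3, 1396 kb from TLE4, and 3513 kb from TLE1.

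At TLE3, 5 of the 6 WDR5 peaks with DMSO were intergenic, and 1 lay in an intron. The intergenic peak at chr15:70111503-70112096, upstream of TLE3, had the highest −log10 q of the locus, 11.03, with 28 fragments at the summit and a fold of 5.88. The peak nearest the start, chr15:70100552-70101044, had its edge 2.64 kb upstream, with 23 fragments and a −log10 q of 6.42. The other intergenic peaks had −log10 q of 5.39 (chr15:70015780-70015973), 3.46 (chr15:70110734-70110908), and 2.51 (chr15:70025516-70025799), and the intronic peak had 1.77. No WDR5 peak was centred in the promoter interval of any of the 22 annotated start sites of TLE3.

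TLE4 had 4 WDR5 peaks with DMSO, with −log10 q from 1.47 to 3.92, all below the median of 4.37 in the WDR5 list. The highest, chr9:79570319-79570569, was centred 1521 bp upstream of the canonical start, outside the promoter interval. The lowest, chr9:79579998-79580182, was the promoter peak of the gene, centred 137 bp upstream of an alternative start. The others were an intronic peak of 6 fragments and an intergenic peak of 15 fragments beyond the 3′ end. All 4 were thus in the lower part of the list by −log10 q, whereas the summit of 15 fragments was above the list median of 13.

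**Figure D2:**
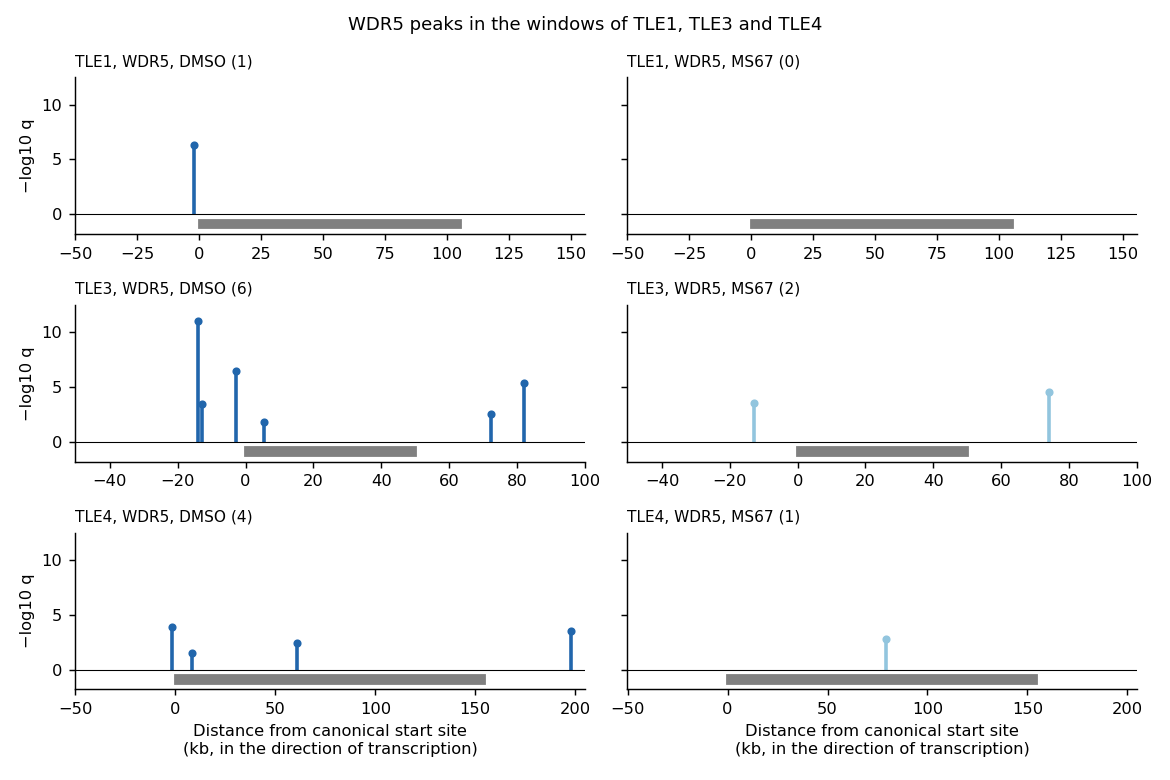
Height of each WDR5 peak (−log10 q, y axis) by the distance of its centre from the canonical start site (kb in the direction of transcription, x axis) in the windows of TLE1, TLE3, and TLE4, with DMSO (left) and MS67 (right). Grey bars mark the gene bodies. A lone peak stands just upstream of TLE1 with DMSO and none with MS67, and peak numbers fall from 6 to 2 at TLE3 and from 4 to 1 at TLE4.

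In the chromosome 19 locus, 10 of the 12 SS18::SSX peaks lay inside a TLE gene, with 4 in TLE2, 4 in TLE5, and 2 in TLE6. The other 2 lay at promoters of neighbours, the zinc finger gene ZNF77 and the noncoding gene ENSG00000288906. The ZNF77 peak, chr19:2944957-2945138, had the highest −log10 q of the locus, 6.33, with 13 fragments at the summit. A WDR5 peak began 63 bp beyond its end, at chr19:2945202-2945558, and did not overlap it.

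In TLE6, the SS18::SSX peak at chr19:2983897-2984169 had 17 fragments, a fold of 5.36, and a −log10 q of 6.04. It lay over exons of noncoding TLE6 transcripts, centred 115 bp upstream of the nearest alternative start and 6469 bp downstream of the canonical start. A smaller SS18::SSX peak, chr19:2983375-2983510, with 12 fragments and a −log10 q of 2.57, lay in the adjoining intron. A single WDR5 peak, chr19:2983337-2984399, with 19 fragments and a −log10 q of 6.76, overlapped both. WDR5 alone was listed at the canonical TLE6 start, where chr19:2977533-2978097 had 17 fragments and a −log10 q of 5.12, and chr19:2976562-2976895 had 17 fragments and 5.43.

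In TLE2, the SS18::SSX peaks were spread over the introns. The peak at chr19:3028403-3028607, with 10 fragments and a −log10 q of 2.36, was centred 149 bp upstream of an alternative start of a protein-coding transcript and 775 bp downstream of the canonical start. A wider WDR5 peak, chr19:3027980-3028634, with 13 fragments and a −log10 q of 4.20, overlapped it. At chr19:3046384-3046527, SS18::SSX had 12 fragments and a −log10 q of 2.54 and shared 78 bp with a WDR5 peak of 14 fragments. The other SS18::SSX peaks of TLE2, chr19:3035691-3035834 with a −log10 q of 4.21 and chr19:3036555-3036713 with 2.86, overlapped no WDR5 peak. The most upstream TLE2 start carried a WDR5 peak, chr19:3047718-3047899, with 14 fragments and a −log10 q of 3.78, and no SS18::SSX peak.

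In TLE5, 4 SS18::SSX peaks stood within 2091 bp, at chr19:3054577-3056667, over exons of noncoding TLE5 transcripts. Their summits held 16 to 17 fragments, with fold enrichments of 3.15 to 3.36 and −log10 q of 2.28 to 2.79. The local background was 4.31 to 4.40 fragments per bp, beside a median of 3.09 over all peaks of the list. The background at the cluster was 7.96 to 8.14 times the genome-wide coverage of that library, 0.541 fragments per bp. The cluster thus lay in raised coverage, as did most listed peaks. No WDR5 peak lay in the TLE5 body, and the nearest was 13.1 kb from its canonical start. The canonical start of TLE5 had no SS18::SSX peak within 5.83 kb. SS18::SSX without a listed WDR5 peak was thus what the TLE5 body showed, whereas in TLE6 and in parts of TLE2 peaks of both proteins overlapped.

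**Figure D3:**
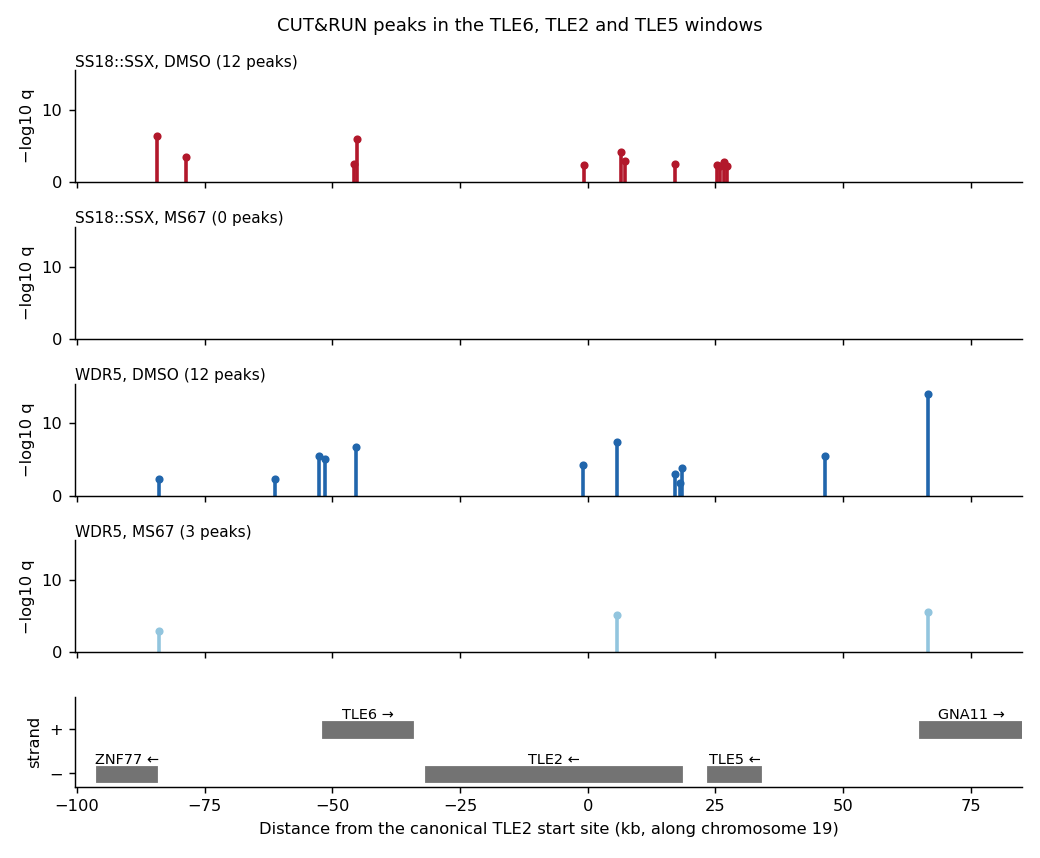
Height of each peak (−log10 q, y axis) by the distance of its centre from the canonical TLE2 start site (kb along chromosome 19, x axis) in the 4 libraries, with the protein-coding genes and their direction at the bottom. SS18::SSX with DMSO shows 12 peaks, including the group of 4 in TLE5, SS18::SSX with MS67 shows none, and WDR5 falls from 12 peaks to 3.

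Over the 4 loci with DMSO, 4 of 12 SS18::SSX peaks overlapped a WDR5 peak (33.3%, exact 95% confidence interval 9.92 to 65.1%), and 33.7% did so in the whole SS18::SSX list. In the other direction, 3 of 23 WDR5 peaks overlapped an SS18::SSX peak (13.0%, 2.78 to 33.6%), beside 13.9% in the WDR5 list. The intervals (Clopper-Pearson) cover counting error only, and both shares were near those of their lists. Under a stricter standard (−log10 q above 3, and a fold above 6 in WDR5 lists), 4 SS18::SSX peaks were left, and 0 of them overlapped a WDR5 peak. That standard left 1 WDR5 peak with DMSO in the windows, in the neighbouring gene GNA11, away from all 4. The 0 was therefore forced by the filter. Of the 4, the TLE6 peak chr19:2983897-2984169 overlapped a WDR5 peak of the full list.

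A promoter peak at any annotated start was listed with DMSO for SS18::SSX at 3 of 6 TLE genes (13.4% of all genes), namely TLE2, TLE5, and TLE6, and for WDR5 at 3 of 6 (43.0%), namely TLE2, TLE4, and TLE6. With MS67, it was 0 of 6 for SS18::SSX (0.724%) and 0 of 6 for WDR5 (27.7%). Of all genes with a promoter peak with DMSO, 95.9% had none with MS67 for SS18::SSX and 50.1% for WDR5, beside 3 of 3 TLE genes for either protein. All the SS18::SSX promoter peaks lay at alternative starts. At the canonical start alone, SS18::SSX had a peak at 0 of 6 genes (8.84%) and WDR5 at 1 of 6 (31.2%), which was TLE6. With MS67, the canonical counts were 0 of 6 for SS18::SSX (0.344%) and 0 of 6 for WDR5 (18.2%). The TLE genes carry 7 (TLE1) to 29 (TLE4) annotated starts, and each start is a further chance for a promoter call. With the starts of protein-coding transcripts alone, SS18::SSX had a promoter peak at 1 of 6 genes (11.9% of all genes) and WDR5 at 2 of 6 (38.8%).

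The depth of the SS18::SSX peaks with DMSO was modest. Their summits held 9 to 17 fragments with a median of 14, beside a median of 16 in the whole list, and −log10 q ran from 2.28 to 6.33 with a median of 2.68, beside 3.68. Only 3 of the 12 exceeded the median −log10 q of the list. The WDR5 peaks with DMSO held 5 to 28 fragments with a median of 14, beside 13 in the list, and their −log10 q ran from 1.47 to 14.01 with a median of 3.92, beside 4.37. The highest of these, 14.01 at chr19:3095258-3096356 with 27 fragments, lay in an intron of the neighbouring G protein gene GNA11. Most SS18::SSX peaks at the TLE genes thus belonged to the weaker part of their list, among them the 4 clustered peaks of TLE5. The exceptions inside TLE genes were chr19:2983897-2984169 in TLE6 and chr19:3035691-3035834 in TLE2. They stood at percentiles 81.7 and 60.2 of −log10 q.

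**Figure D4:**
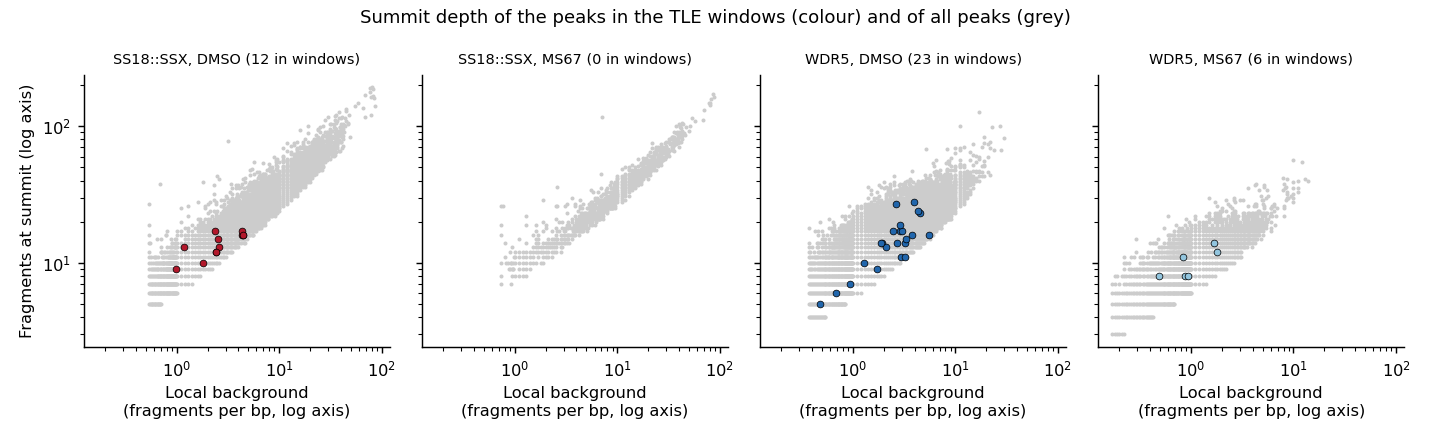
Fragments at the summit (y axis, log) against the local background in fragments per bp (x axis, log) for the peaks in the TLE windows (coloured) and for all peaks of each list (grey). The coloured SS18::SSX points with DMSO lie between 9 and 17 fragments, and no point is coloured in the SS18::SSX list with MS67.

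The libraries differed in depth. The coverage recovered from the peak lists was 0.541 fragments per bp for SS18::SSX with DMSO, 0.737 with MS67, 0.368 for WDR5 with DMSO, and 0.168 with MS67. The lists held 15141, 1175, 35605, and 14123 peaks in the same order. These coverages, and the ratios and scaled summits below that rest on them, assume that peaks were called without a control library, since none is stated. With a control, the background would not be the library's own coverage. No spike-in scaling could be applied to peak lists, so the values compare listed peaks, not amounts of protein on chromatin.

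With MS67, none of the 12 SS18::SSX peaks in the TLE windows overlapped a listed peak (100% lost, 95% confidence interval 73.5 to 100%), beside 94.2% lost over the whole list and 96.6% among peaks of the same −log10 q range. Coverage was 1.36 times higher with MS67. Multiplied by this ratio, the summits would hold 12.3 to 23.2 fragments. All 12 would pass the smallest −log10 p of the MS67 list, 5.04, as would 96.9% of the whole DMSO list. The 12 peaks passed it before scaling too, the lowest having 5.40. This outcome was thus fixed in advance and shows nothing about the loss. The nearest SS18::SSX peak with MS67 was 724.1 kb from the TLE6 start, 775.8 kb from the TLE2 start, and 809.0 kb from the TLE5 start. The share lost at the TLE genes was close to that of the list.

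For WDR5, 19 of the 23 peaks had no overlapping peak with MS67 (82.6%, 95% confidence interval 61.2 to 95.05%), beside 75.0% over the whole list and 75.8% in the same −log10 q range. By locus, 9 of 12 peaks were lost on chromosome 19, 5 of 6 at TLE3, 4 of 4 at TLE4, and 1 of 1 at TLE1. The length covered by WDR5 peaks in the windows fell from 8600 bp to 1795 bp, a ratio of 0.209, with median summits of 14 and 9.5 fragments. Coverage of the MS67 library was 0.458 times that with DMSO. When the pileup and background of each DMSO peak were multiplied by this ratio, 9 of the 23 would still pass the smallest −log10 p of the MS67 list (39.1%), beside 43.7% of the whole list. Of these 9, 7 were lost (77.8%, 40.0 to 97.2%), beside 62.2% in the list. Of the 14 that would not pass, 12 were lost. In the list, 26708 of 35605 peaks were lost, and 9687 of these were among the 15574 that would pass. Most list peaks that would not pass were therefore lost as well. The stricter standard left 1 WDR5 peak with DMSO, that in GNA11, and it was not lost.

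The WDR5 peaks lost although they would pass were those upstream of TLE1, 3 at TLE3, and 3 on chromosome 19. The TLE1 peak, with a −log10 q of 6.31, and the TLE3 peak of 28 fragments were among them, as was the TLE6 peak that overlapped SS18::SSX. At TLE4, 0 of 4 peaks would pass, so a loss there was not detectable at this depth.

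The sites listed for WDR5 with DMSO and with MS67 numbered 4 and included those at ZNF77, in GNA11, and upstream of TLE3. At the GNA11 site, 27 fragments stood against 11, and −log10 q was 14.01 and 5.62. At TLE3, the pair was chr15:70110734-70110908 with 16 fragments and chr15:70110652-70110811 with 12. None of these 4 sites overlapped an SS18::SSX peak.

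Of the 6 WDR5 peaks with MS67, 2 had no DMSO counterpart (33.3%, 4.33 to 77.7%), beside 35.6% in the list. They were chr9:79651310-79651469 in a TLE4 intron, with 8 fragments and a −log10 q of 2.75, and the intergenic chr15:70023822-70023974 in the TLE3 window, with 8 fragments and 4.51. Per gene, fewer WDR5 peaks were listed with MS67 in the windows of 6 of 6 genes, beside 84.2% of all genes with a WDR5 window peak, and none remained at TLE1 alone, beside 18.8%. For SS18::SSX, 3 of the 3 genes with a peak had fewer with MS67, beside 98.8%, and 3 of the 3 had none, beside 86.5%.

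RefSeq gave 11 promoters for the 6 genes, each of 300 bp. Their median GC content was 66.3%, beside 58.7% over 35116 promoters, and the ratio of observed to expected CpG was 0.889, beside 0.579. GGGCGG occurred in 9 of 11, beside 45.0% of all promoters, CCAAT in 4 of 11, beside 34.6%, and CACGTG in 2 of 11, beside 7.26%. The TLE1 promoter had a GC content of 76% and 44 CpG sites, and no peak of any library overlapped it. Peaks overlapped 2 of the 11 promoters, both WDR5 with DMSO, at 168 bp of an upstream TLE2 promoter and 81 bp of a TLE6 promoter. No share of peak overlap over the 35116 promoters is given here. The 2 of 11, and the lack of a peak at the TLE1 promoter, are therefore descriptions without a comparison.

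Within 100 bp on each side of the summits, SS18::SSX peaks of the windows held CCAAT in 5 of 12, beside 18.4% of the list, GGGCGG in 4 of 12, beside 20.4%, and CACGTG in 1 of 12, beside 4.42%. Of the 5 SS18::SSX peaks with CCAAT, 2 were those at the promoters of ZNF77 and ENSG00000288906, outside the TLE genes. WDR5 summits with DMSO held GGGCGG in 9 of 23, beside 23.02%, CCAAT in 2 of 23, beside 16.8%, and CACGTG in 1 of 23, beside 4.34%. No test was made of these shares.

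Factor families with members that recruit TLE proteins were read from lists of TCF/LEF, HES/HEY, and RUNX genes, with other corepressor genes beside them. Not every listed gene is a known recruiter. Over all protein-coding genes, a promoter peak was listed with DMSO for SS18::SSX at 13.4% and for WDR5 at 43.0%. The RUNX genes, which encode runt-domain factors, had an SS18::SSX promoter peak with DMSO at 3 of 3, with −log10 q of 6.09 at RUNX1, 5.08 at RUNX2, and 3.54 at RUNX3. HES/HEY genes, some of which are transcriptional targets and repressors of the NOTCH pathway, had one at 4 of 10 (HES3, HES6, HES7, HEY2). The highest was HES6 with 18 fragments and a −log10 q of 7.05. Among TCF/LEF genes, the DNA-binding factors of WNT signaling, it was 1 of 4, TCF7L2, with a −log10 q of 3.32. Of the 11 other corepressor genes, 0 had an SS18::SSX promoter peak and 7 had one of WDR5.

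For WDR5 with DMSO, promoter peaks were listed at 4 of 4 TCF/LEF genes, 4 of 10 HES/HEY genes, and 2 of 3 RUNX genes. A promoter peak of each protein was listed at 6 of the 28 partner and corepressor genes and 2 of the 6 TLE genes, beside 9.34% of all genes. This count is per gene, and the peaks need not overlap or lie at the same start. With MS67, WDR5 promoter peaks were listed at 3 of 4 TCF/LEF genes, 1 of 10 HES/HEY genes, 0 of 3 RUNX genes, and 3 of 11 other corepressor genes, beside 27.7% of all genes. An SS18::SSX promoter peak with MS67 was listed at 1 of the 28, HEY1, with 14 fragments and a −log10 q of 1.62. The lists are small, and their shares are descriptions.

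**Figure D5:**
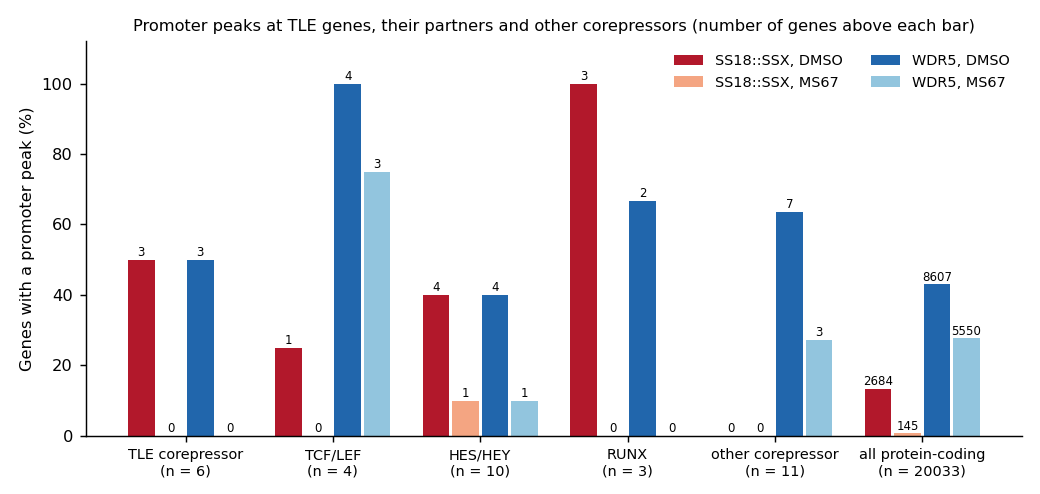
Share of genes with a promoter peak (%, y axis) in the 4 libraries for the TLE genes, the partner lists, the other corepressor genes, and all protein-coding genes (x axis), with the number of genes above each bar. With DMSO, SS18::SSX is at 3 of 6 TLE genes and 3 of 3 RUNX genes, and at 0 of 11 other corepressor genes.

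The genes whose pattern over the 4 libraries was most like that of TLE1, by the Euclidean distance between log-scaled base pairs of peak per kb of window, were OPA1, RAB38, and FAM9B among 20032 others. OPA1 encodes a mitochondrial fusion GTPase. The WDR5 peaks with DMSO covered 0.991 bp per kb of the TLE1 window, 0.992 for OPA1, 0.986 for RAB38, and 0.985 for FAM9B, and the other 3 libraries had no peak at any of them. A distance below 0.1 was found for 65 of the 20032 genes, so TLE1 was not alone in this pattern.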

How the data were processed

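HSSY II peak lists from CUT&RUN for WDR5 and for SS18::SSX, after DMSO or MS67, were analysed, with 1 library per condition and groups taken from the labels. The authors aligned reads to hg38 with Bowtie2, removed duplicates with Picard, and called peaks with MACS2 in each library. The MACS2 options are not given in the sources used here. The authors deposited for each peak a fold enrichment (a ratio to local background) and −log10 p and −log10 q values. The deposited score was not used.

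MACS2 writes the fold as (pileup + 1)/(background + 1) and p as a Poisson tail, so whole-fragment pileups were recovered, within 0.001 in −log10 p for 100% of peaks, and the step was tested on simulated data. The lowest background was taken as coverage, assuming peak calls without a control library, as none is stated. Peaks sharing 1 bp or more counted as overlapping, and shares were given exact Clopper-Pearson intervals at 95%, for counting error only. Genes came from GENCODE 44, the "canonical" start being that of the Ensembl canonical transcript, and promoter sequences from RefSeq. The genes named were the 6 members, those of the partner lists, those at a described peak, and the 3 whose covered length per kb over the 4 libraries was nearest to that of TLE1. The members and lists were chosen with earlier results of these data known. Spike-in signals were not analysed here, and 1 site and 1 gene that the rule covers are not reported here. Python 3.11.15, numpy 2.4.6, scipy 1.17.1, pandas 2.3.3, matplotlib 3.10.9, and pysam 0.24.0 were used.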

Additional observations from a re-analysis of the deposited data

How the results depend on the processing

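Of 55 alternative values, 43 stayed within their error or within 1.5 times the reported count, 12 moved, and 0 reversed. Some of the 43 could not move. With no SS18::SSX peak in the windows with MS67, stricter filters or narrower windows could only return 100% loss and a ratio of 0. Likewise, stricter filters could only leave the MS67 promoter counts at 0. The 43 therefore overstate how stable the results are. With the stricter standard (−log10 q above 3, with a fold above 6 in WDR5 lists and above 3 in SS18::SSX lists), the WDR5 loss was 0% of the 1 peak left, the overlap of SS18::SSX with WDR5 was 0% of 4 peaks, the covered WDR5 ratio was 0.742, and promoter genes with DMSO were 1 for SS18::SSX and 0 for WDR5. With 1 WDR5 peak left, away from the SS18::SSX peaks, the overlap could only be 0%. With −log10 q above 5, promoter genes were 1 for SS18::SSX and 1 for WDR5. With canonical starts, they were 0 and 1, and with starts of protein-coding transcripts 1 for SS18::SSX. With promoters of 2 kb on either side, 1 gene had a WDR5 peak with MS67. With flanks of 10 kb, the covered ratio was 0.123. Apart from the stricter standard, the WDR5 loss was 78.3 to 93.3%, and the SS18::SSX loss was 100% wherever a value could be had. The SS18::SSX DMSO list reduced to the size of the MS67 list left no peak in the windows, so it gave no value. No paired analysis was possible because each condition had 1 library. The cause of the moves was not tested, beyond fewer peaks or starts being counted. Depth limits what a missing peak shows, mainly for WDR5 with MS67.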
